A study of Homo sapiens with 16 samples.

Results

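RNA tagged by an esterase placed inside mitochondria was compared with RNA tagged by the same esterase in the cytosol of HEK293T cells, a human embryonic kidney line. The comparison rests on 4 of the 16 libraries of the series: 2 pull-downs from cells with mitochondrial BS2 and 2 from cells with cytosolic BS2, chosen by the group named in their labels. The 2 matching inputs, 1 library per construct taken without pull-down, served as a check, and 16133 genes of 24878 with values were tested. In both groups BS2 was expressed transiently from a plasmid delivered by lipid transfection into otherwise wild-type cells, and at 24 h both were exposed for 3 min to the probe AC-2 (50 µM), which 1 mM PMSF then quenched. By design the groups differ in the address of the enzyme, but construct and transfection differ with it and cannot be told apart from it. Neither the promoter of the plasmid nor the share of cells that took it up is given in the sources used here. The replicates are called biological without naming separate cultures, and the spread behind each p-value may therefore be technical.

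BS2 is a bacterial esterase, and AC-2 is a masked probe that it activates, so that RNA near the enzyme becomes tagged, is clicked to biotin and can be captured. Human mitochondria carry a small circular genome that is transcribed from both strands into long precursors and cut into mRNAs, rRNAs and tRNAs inside the organelle. Its mRNAs encode core subunits of the respiratory chain and of ATP synthase, while all other mitochondrial proteins come from nuclear genes and are made outside. Most mitochondrial mRNAs carry a short poly(A) tail, which lets poly(A) capture, used for these libraries, retain them.

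A pair of features of the mitochondrial genome bear on how its values can be read, and the sequences that show them follow (GENCODE 29 on GRCh38, 5′ to 3′). The reading frames of MT-ATP8 and MT-ATP6 share 46 bases (chrM:8527-8572, plus strand), in which capitals mark the MT-ATP6 start codon. Those of MT-ND4L and MT-ND4 share 7 bases (chrM:10760-10766, plus strand), with the MT-ND4 start codon in capitals. Reads from such shared mRNAs cannot be fully assigned to 1 gene, so the members of each pair are not independent measurements.

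MT-ATP8 and MT-ATP6 shared bases: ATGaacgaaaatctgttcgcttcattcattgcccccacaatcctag
MT-ND4L and MT-ND4 shared bases: ATGctaa

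The other feature is the strand. MT-ND6 lies on the minus strand between MT-ND5 and MT-CYB, whereas the other 12 mRNAs lie on the plus strand. The first 60 bases of MT-ND6 (chrM:14614-14673, minus strand) and of its neighbour MT-ND5 (chrM:12337-12396, plus strand) are shown with G in capitals: MT-ND6 holds 21 G and MT-ND5 holds 2.

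MT-ND6 first bases: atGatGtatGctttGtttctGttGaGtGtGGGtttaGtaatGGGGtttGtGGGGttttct
MT-ND5 first bases: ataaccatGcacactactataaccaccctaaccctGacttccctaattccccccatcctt

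Over its whole length of 525 bases, MT-ND6 consists of 35.6% G, 37.7% T, 19.6% A and 7.05% C. The plus-strand mRNAs range from 6.28% to 16.2% G and from 29.5% to 36.0% C. Whether reads were counted by strand is not given in the sources used here, so MT-ND6 reads and reads of precursor RNA transcribed across it on the other strand cannot be told apart.

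Levels are in CPM, read counts scaled to the library total and normalized by the submitters. Changes are differences of mean log2(CPM + 1), mitochondrial minus cytosolic, with their standard error, a scale on which changes of genes around 1 CPM or less appear too small. A gene was called when its limma adjusted p, over all genes tested, was below 0.05. Depth was 20.0 and 10.7 M reads in the mitochondrial pull-downs, 11.2 and 13.02 M in the cytosolic ones, and 9.86 and 13.01 M in the mitochondrial and cytosolic inputs, so that 3 reads stood for 0.162 to 0.296 CPM. Over 11716 genes the median absolute log2 difference was 0.0782 between the cytosolic replicates and 0.126 between the mitochondrial ones. It was 0.135 to 0.177 between pull-downs of the 2 groups, 0.219 between the inputs and 0.507 to 0.711 between a pull-down and an input. The pull-downs of both constructs were thus far closer to each other than to either input. Of 10 genes known from HEK293 cells, 10 were detected, with a summed level of 2016 to 2250 CPM in the 4 pull-downs. Their median change was -0.19, with 1 positive and 9 negative, and 3 were lower at an unadjusted p below 0.05. The positive one, NEFM, a neurofilament gene, was called higher (0.46 ± 0.0985, limma adjusted p = 0.0404), a call lost without any one of the 4 libraries. In 8 of the 10 both mitochondrial pull-downs were below both cytosolic ones, beside 32.6% of all genes. Of 15 markers of blood cells, fibroblasts, keratinocytes and hepatocytes, 2 have no value and 2 to 5 were at 0, and their sum was 21.9 to 23.7 CPM.

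All 13 mRNAs of the mitochondrial genome were higher with mitochondrial BS2, with changes of 2.29 to 3.85 and a median of 2.65 (limma adjusted p = 1.60e-06 at most). Against this, 102 of the 16133 genes tested (0.632%) were called higher, and the median change of all genes was -0.03. In each of the 13, both mitochondrial pull-downs exceeded both cytosolic ones. None of the 13 calls was lost without any one of the 4 libraries (limma adjusted p = 8.99e-05 at most).

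The 7 subunits of complex I, the entry point of electrons from NADH, ranged most widely. MT-ND4, the most abundant, stood at 8130 and 10374 CPM with mitochondrial BS2 and at 1222 and 1403 CPM with cytosolic BS2 (change 2.81 ± 0.181). MT-ND5 stood at 4803 and 6733 CPM against 829 and 988 CPM (2.65 ± 0.210). MT-ND2 stood at 3707 and 4780 CPM against 512 and 569 CPM (2.96 ± 0.179). In these 3 the second mitochondrial replicate was the higher one, a feature shared by all 13 mRNAs. MT-ND1 stood at 3374 and 4050 CPM against 495 and 571 CPM (2.80 ± 0.168). MT-ND4L, which shares bases with MT-ND4, stood at 453 and 627 CPM against 78.2 and 90.07 CPM (2.65 ± 0.199). The lowest change of the 13 belonged to MT-ND3, whose levels of 500.2 and 537 CPM against 98.4 and 112 CPM gave 2.29 ± 0.178.

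MT-ND6 had the largest change of all 16133 genes in the upward direction. It stood at 291 and 504 CPM in the mitochondrial pull-downs and at 23.03 and 28.5 CPM in the cytosolic ones, a ratio of means of 15.4 and a change of 3.85 ± 0.208 (95% interval 3.41 to 4.29, limma adjusted p = 3.35e-08). The other 12 changed by 2.29 to 2.96.

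Cytochrome b and the cytochrome c oxidase subunits, of complexes III and IV, were likewise several times higher in both mitochondrial pull-downs. MT-CO1, the catalytic subunit of cytochrome c oxidase and the most abundant of the 13, stood at 11785 and 12516 CPM against 2041 and 2228 CPM (2.51 ± 0.134). MT-CO2 stood at 3601 and 3912 CPM against 659 and 731 CPM (2.43 ± 0.189), and MT-CO3 at 5359 and 5494 CPM against 1080 and 1124 CPM (2.30 ± 0.157). The cytochrome b mRNA MT-CYB stood at 4094 and 4584 CPM against 699 and 782 CPM (2.55 ± 0.166). For ATP synthase, MT-ATP6 stood at 5149 and 6674 CPM against 842 and 952 CPM (2.71 ± 0.202). MT-ATP8, whose frame overlaps that of MT-ATP6 in the bases shown above, stood at 1176 and 1547 CPM against 162 and 189.7 CPM (2.94 ± 0.218). Per kilobase, MT-ATP6 (8681 CPM per kb) and MT-CO1 (7880 CPM per kb) had the highest mean levels in the mitochondrial pull-downs and MT-ND6 the lowest of the 13, at 756 CPM per kb.

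**Figure D1:**
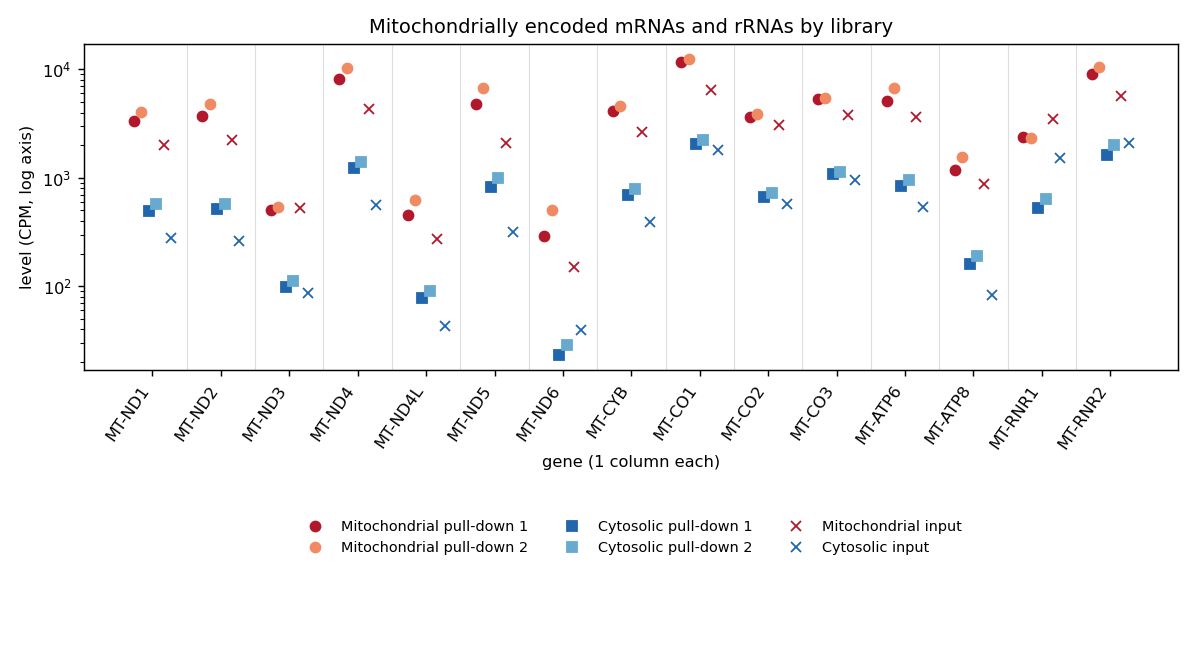
Levels (CPM, log axis) of the 13 mRNAs and 2 rRNAs of the mitochondrial genome in the 4 pull-downs (filled) and the 2 inputs (crosses), 1 point per library. For every gene both mitochondrial pull-downs lie above both cytosolic ones, and the mitochondrial input lies above the cytosolic input; MT-ND6 has the widest gap between pull-downs, 291 and 504 against 23.03 and 28.5 CPM.

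Summed over the 13 mRNAs, mitochondrially encoded mRNA made up 4.84% and 6.06% of CPM with mitochondrial BS2 and 0.845% and 0.931% with cytosolic BS2, or 5.45% ± 0.862 against 0.888% ± 0.0607 (SD, n = 2 each). The groups differed by 4.57 percentage points, a ratio of 6.14. An exact two-sided permutation test of 2 libraries against 2 gave p = 0.333, the smallest p this design allows. Read against the other groups, the mitochondrial pull-downs had the highest share of the 16 libraries and the cytosolic ones were near the bottom: pull-downs from non-transfected cells held 2.03% ± 0.236 (SD, n = 3), nuclear ones 0.876% ± 0.139 (SD, n = 3) and nucleolar ones 2.94% ± 0.498 (SD, n = 2). The share in the cytosolic pull-downs was thus lower than in the pull-downs from cells without BS2, and close to that of the nuclear construct.

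The inputs differed in the same direction and by nearly as much. Without pull-down, their share was 3.29% in the mitochondrial input and 0.602% in the cytosolic input, a ratio of 5.46, with 1.33% and 1.84% in the non-transfected and nuclear inputs. Each input is 1 library, so its share has no replicate. Gene by gene, the input difference ran from 1.81 (MT-CO1) to 3.37 (MT-ATP8), with a median of 2.71 beside the pull-down median of 2.65. When the input difference was subtracted from the pull-down difference, 5 of the 13 came out positive and 8 negative, with a median of -0.06. For the 12 plus-strand mRNAs, the mean pull-down level was 0.974 to 2.75 times the input with mitochondrial BS2 and 1.15 to 2.85 times the input with cytosolic BS2. In non-transfected cells, without BS2, the mean pull-down level was also at or above the input for each of the 12. There MT-ND3 stood at 239.3 against 238 CPM and MT-ND5 at 1830 against 733 CPM. With nuclear BS2 it was below the input for each of the 12 (MT-ND5 at 599 against 1026 CPM). In bulk libraries such as these, a change in the number of transfected cells and a change in RNA per cell cannot be told apart.

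MT-ND6 was the exception among the 13. Its input difference was 1.89 (149.5 against 39.7 CPM), which left a corrected difference of 1.96 ± 0.367 (95% interval 1.18 to 2.75, limma adjusted p = 0.0471). With mitochondrial BS2 its pull-down level was 2.66 times its input, and with cytosolic BS2 it was 0.648 times its input. In non-transfected cells, without BS2, its mean pull-down level was also above its input, at 91.8 against 38.3 CPM. With nuclear BS2 it was below its input, at 25.2 against 76.9 CPM. Beside MT-ND6, MT-CO1 had a corrected difference of 0.70 ± 0.233 that did not pass (limma adjusted p = 0.306). As a share of the 13 mRNAs, MT-ND6 made up 0.554% and 0.808% in the mitochondrial pull-downs, 0.264% and 0.291% in the cytosolic ones, and 0.244% to 0.455% in the 8 other pull-downs. The 4 inputs ranged from 0.279% to 0.668%, with the cytosolic input the highest, so part of the corrected difference rests on that single library. The corrected call was lost in 11 of 16 alternatives, with limma adjusted p from 0.00695 to 0.162 over all of them. It was lost without mitochondrial replicate 2 (limma adjusted p = 0.0838), cytosolic replicate 1 (0.162) or cytosolic replicate 2 (0.0717). It was also lost under each of 3 rescalings (0.067 to 0.103), quantile normalization (0.0981), robust moderation (0.129), a pseudocount of 0.5 CPM (0.0526), the deposited log2 values (0.0533), and the 4 pull-downs and 2 inputs alone (0.0924).

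**Figure D2:**
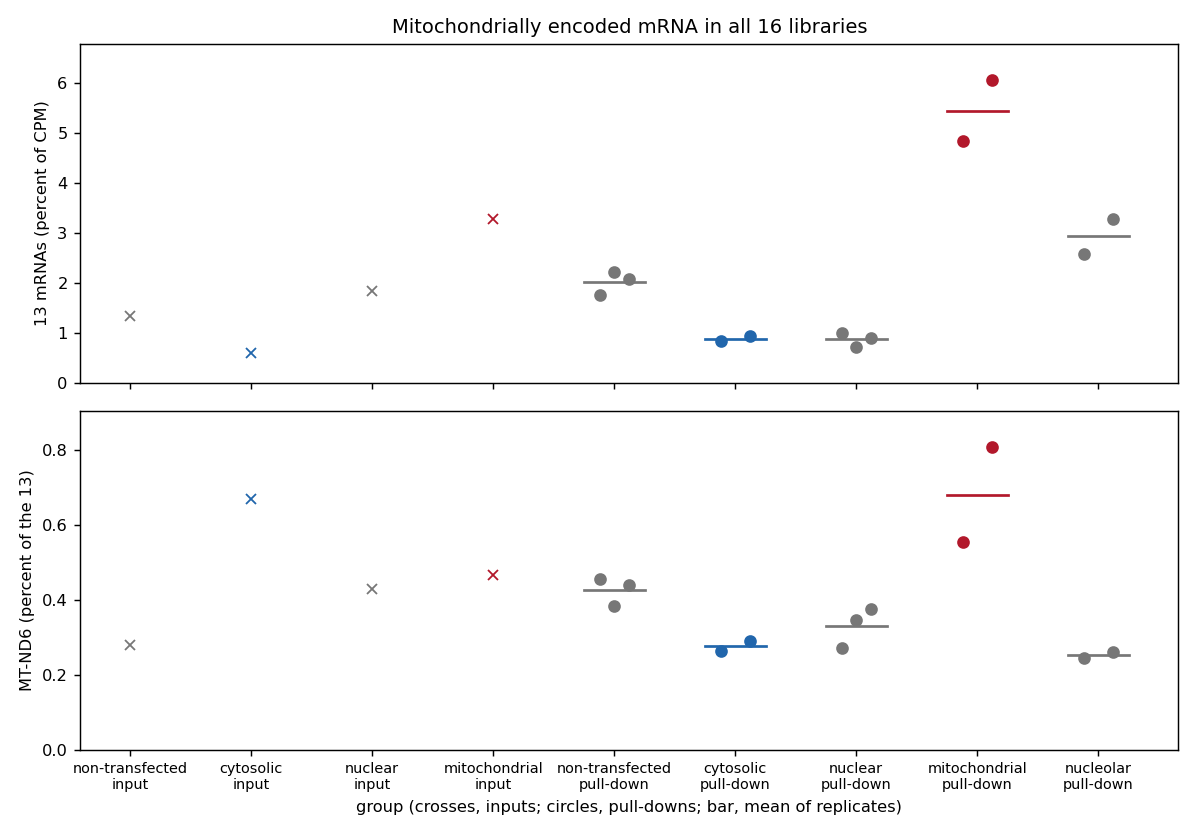
Upper panel, share of the 13 mitochondrially encoded mRNAs in CPM (percent) in each of the 16 libraries by group; lower panel, MT-ND6 as a percent of those 13 mRNAs. Circles are pull-downs, crosses inputs and bars the means of replicates. The mitochondrial pull-downs hold 4.84% and 6.06%, the cytosolic ones 0.845% and 0.931%, and the cytosolic input has a higher share of MT-ND6 (0.668%) than its own pull-downs.

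The mitochondrial rRNAs moved with the mRNAs. MT-RNR2, the large-subunit rRNA, stood at 8991 and 10481 CPM against 1640 and 2012 CPM (2.42 ± 0.163, limma adjusted p = 3.26e-07). MT-RNR1, the small-subunit rRNA, stood at 2376 and 2320 CPM against 528 and 638 CPM (2.01 ± 0.122, limma adjusted p = 1.01e-07). Their inputs differed less, by 1.45 and 1.20, and the corrected differences of 0.96 ± 0.287 and 0.81 ± 0.213 did not pass (limma adjusted p = 0.238 and 0.182). MT-RNR1 was below its input in both groups, at 0.677 and 0.386 times the input level. The tRNA genes MT-TE, at 1.19 and 3.84 CPM against 0.184 and 0.242 CPM, and MT-TL1, at 1.57 and 1.73 CPM against 0.0922 and 0.484 CPM, were called too (limma adjusted p = 0.0467 each). In the cytosolic pull-downs these 2 stood at a handful of reads, and both calls were lost without either cytosolic replicate (limma adjusted p up to 0.385 and 0.601). MT-TE lost its call also without mitochondrial replicate 2 (limma adjusted p = 0.552), and without either mitochondrial replicate MT-TL1 did not pass the filter on low values and was not tested.

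Nuclear copies of mitochondrial genes could share reads with them. Of 4 tested, 0 were called by limma and 1 was higher at an unadjusted p below 0.05. All 4 had a positive change, with a median of 0.63, and in 2 both mitochondrial pull-downs were above both cytosolic ones. MTRNR2L3, a nuclear copy resembling MT-RNR2, stood at 0.162 and 2.40 CPM against 0.184 and 0.0806 CPM, while its inputs held 5.73 CPM (mitochondrial) and 21.4 CPM (cytosolic), the opposite order to MT-RNR2.

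Beyond the mitochondrial genome, 85 nuclear genes were called higher and 32 genes lower (0.198% of those tested). With CPM rescaled to a common total the calls were 105 higher and 58 lower. At least 2-fold changes numbered 67 higher (0.415%) and 9 lower (0.0558%). The 102 genes called higher comprise 55 protein-coding genes, 13 of them mitochondrial, 42 lncRNAs (41.2%, in a table where 2097 of the 16133 genes tested are lncRNAs) and 5 genes of other types, and 22 are known by a clone name. The 32 called lower comprise 30 protein-coding genes and 2 lncRNAs. Over all 2097 lncRNAs tested the median change was 0.12 (inputs 0.05), and over 14010 protein-coding genes it was -0.05 (inputs -0.03).

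The inputs leaned the same way for many of these genes. Of the 102 called higher, the input difference was also positive in 86 (84.3%, beside 47.6% of all genes) and at least 1.5-fold in 45 (44.1%, beside 7.04%). Of the 85 nuclear ones alone, it was positive in 69 (81.2%) and at least 1.5-fold in 27 (31.8%). Of the 32 called lower, it was also negative in 26 (81.2%, beside 51.9%) and at least 1.5-fold in 9 (28.1%, beside 8.50%). For the nuclear genes called higher the median change was 1.08 in pull-downs and 0.32 in inputs. For the genes called lower it was -0.56 in pull-downs and -0.46 in inputs. Base composition moved with both: in the eighth of genes with the lowest GC content the median change was 0.08 in pull-downs and 0.17 in inputs, and in the eighth with the highest it was -0.20 and -0.27. With a length and GC trend removed, 95 of the 102 and 27 of the 32 genes were called again, among 235 higher and 98 lower.

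**Figure D3:**
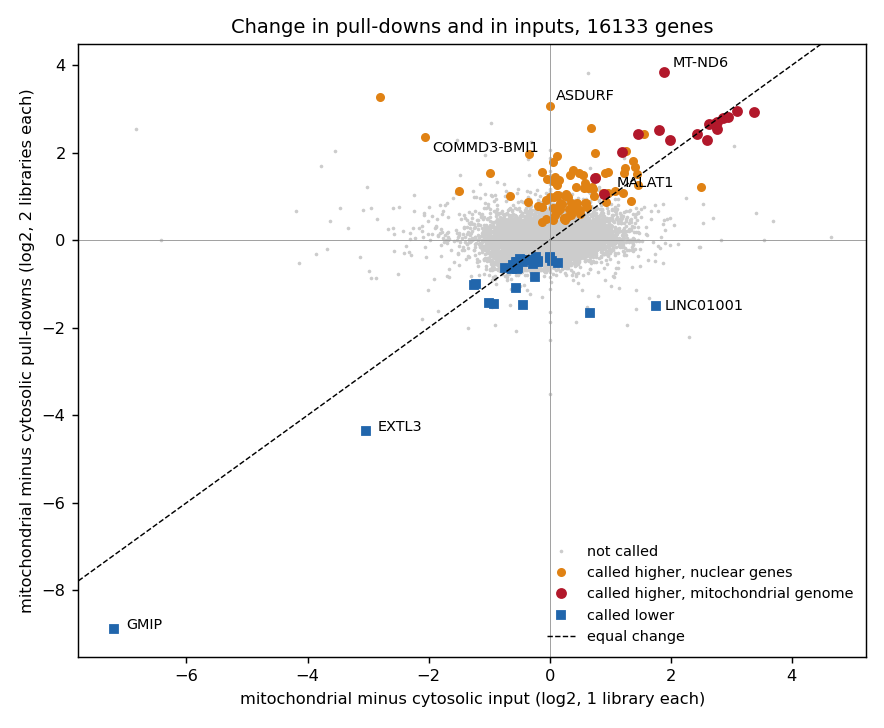
Change in pull-downs (log2, mitochondrial minus cytosolic, 2 libraries each) against the difference of the single inputs (log2), for the genes tested; colours mark genes called in the pull-downs, and the dashed line marks equal change. The 17 genes of the mitochondrial genome lie high on both axes, most near the dashed line with MT-ND6 above it, and GMIP (-8.88 and -7.19) and EXTL3 (-4.36 and -3.03) lie low on both.

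mRNAs of nuclear genes for mitochondrial proteins did not follow the mitochondrially encoded ones. Proteins of the respiratory chain, the mitochondrial ribosome and the import machinery are made on cytosolic ribosomes, some of them at the outer membrane. Of 77 mRNAs for respiratory complex subunits, 0 were called in either direction by limma. At an unadjusted p below 0.05, 1 was higher and 26 were lower, beside 5.03% and 10.8% of all genes. Their median change was -0.23 (inputs -0.09). ATP5F1B, the catalytic beta subunit of ATP synthase, stood at 629 and 582 CPM against 767 and 745 CPM (-0.32 ± 0.0922, limma adjusted p = 0.121). ATP5F1A, the alpha subunit, stood at 382 and 344 CPM against 428 and 423 CPM (-0.23 ± 0.0866, limma adjusted p = 0.214). Both mRNAs were lower in both mitochondrial pull-downs, at mean levels 0.801 and 0.854 times the cytosolic ones, without passing the test.

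The same held for 77 mitoribosomal protein mRNAs: 0 were called, 16 were lower and 0 higher at an unadjusted p below 0.05, and the median was -0.18 (inputs -0.02). MRPL3, of the large subunit, stood at 277 and 246 CPM against 269.7 and 264 CPM, so the groups overlapped. Among 33 import genes 0 were called by limma and 8 were lower at an unadjusted p below 0.05, with a median of -0.18. The receptor subunits TOMM20 (673 and 611 against 663 and 663 CPM) and TOMM70 (284 and 270.3 against 247.5 and 259 CPM) changed by -0.05 ± 0.0888 and 0.13 ± 0.0958 (limma adjusted p = 0.856 and 0.554). For TOMM20 the 95% interval of the change was -0.24 to 0.14.

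Matrix enzymes (33 genes, median -0.13) and mitochondrial chaperones and proteases (17 genes, median -0.16) likewise had 0 calls by limma, with 10 and 7 lower and 0 higher at an unadjusted p below 0.05. The chaperonin HSPD1 stood at 1581 and 1463 CPM against 1498 and 1552 CPM (0.00 ± 0.0974, limma adjusted p = 0.994). The import motor chaperone HSPA9 stood at 869 and 846 CPM against 804 and 819 CPM (0.08 ± 0.0916, limma adjusted p = 0.734). Factors that transcribe, process or translate mitochondrial RNA (41 genes) had a median of 0.01, 0 calls by limma, and 3 higher and 4 lower at an unadjusted p below 0.05. TFAM, which packages and transcribes mitochondrial DNA, changed by 0.14 ± 0.119, and LRPPRC, which stabilizes mitochondrial mRNAs, by -0.09 ± 0.100 (limma adjusted p = 0.605 and 0.704). Of 42 SLC25 carriers of the inner membrane, 1 was higher: SLC25A27, at 13.5 and 12.5 CPM against 8.07 and 7.18 CPM (0.70 ± 0.151, limma adjusted p = 0.0415). That call was lost without any one of the 4 libraries (limma adjusted p up to 0.335).

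In a fit of the 4 compared libraries alone, which called 375 of 14720 genes higher (2.55%) and 926 lower (6.29%), 15 respiratory complex mRNAs were lower and 1 higher, 7 mitoribosomal mRNAs were lower and 0 higher, and 5 import mRNAs were lower and 0 higher.

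**Figure D4:**
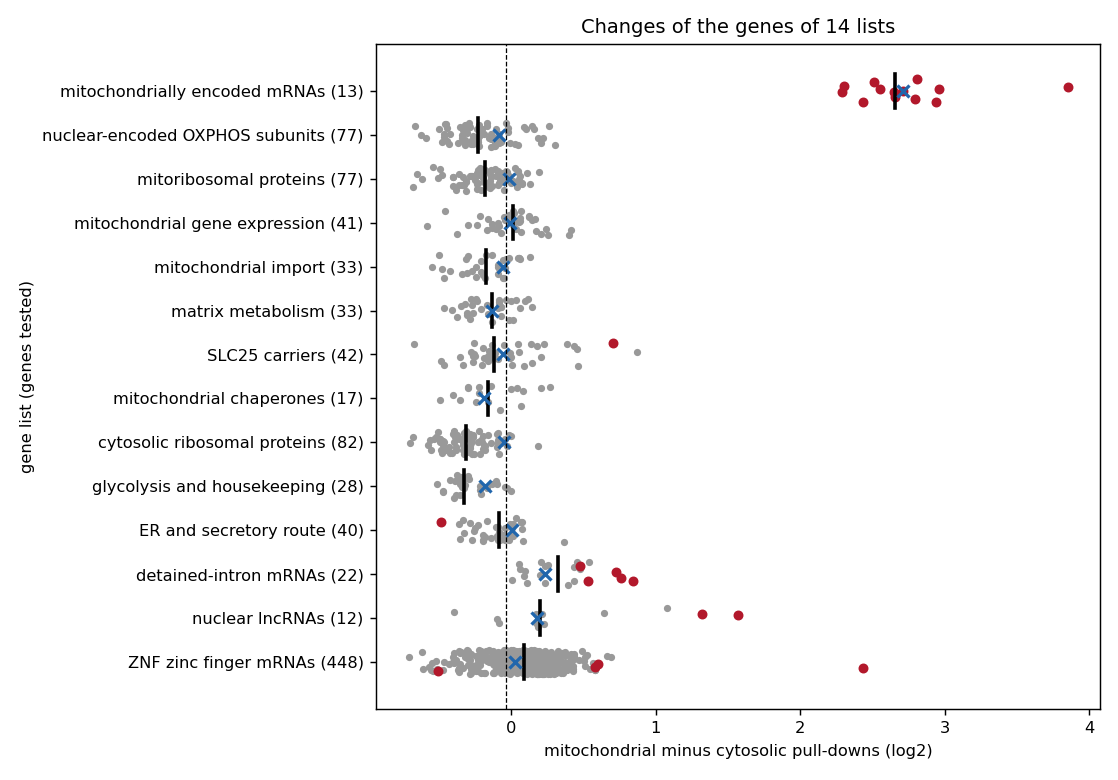
Change of each gene (log2, mitochondrial minus cytosolic pull-downs) in 14 lists, with the number tested in parentheses. Red points were called and grey points were not, black bars are list medians, blue crosses are the medians of the input differences and the dashed line is the median of all genes (-0.03). The mitochondrially encoded mRNAs stand apart at a median of 2.65, while the lists of nuclear-encoded mitochondrial proteins have medians of -0.23 to 0.01.

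MALAT1 and NEAT1, 2 of 12 lncRNAs known to stay in the nucleus that were tested, were higher with mitochondrial BS2. Beside these 2 of 12 (16.7%), 0.632% of all genes and 42 of 2097 lncRNAs were called higher. MALAT1, the lncRNA of nuclear speckles, stood at 1322 and 1443 CPM against 439.6 and 491 CPM (1.57 ± 0.140, limma adjusted p = 7.03e-06). NEAT1, the scaffold of paraspeckles, stood at 125 and 142 CPM against 49.06 and 56.9 CPM (1.32 ± 0.142, limma adjusted p = 7.87e-05). In both the groups were well apart, and both calls held without any one of the 4 libraries (limma adjusted p up to 0.000405 and 0.00423). MALAT1 was also the higher in the mitochondrial input (301 against 154 CPM), as was NEAT1 (51.8 against 34.1 CPM). The corrected differences of 0.61 ± 0.243 and 0.73 ± 0.251 did not pass (limma adjusted p = 0.406 and 0.325). Of the 12, 9 had a positive and 3 a negative change, beside 7042 and 9066 of all 16133 genes, with a list median of 0.20 (inputs 0.18). TUG1, at 265.5 and 278 CPM against 239 and 238 CPM, did not pass (0.19 ± 0.101, limma adjusted p = 0.381). In the non-transfected pull-downs MALAT1 stood at 428 to 564 CPM, a range that holds both cytosolic values, and in the nuclear ones at 1435 to 1849 CPM. NEAT1 stood at 75.9 to 104 CPM in the non-transfected pull-downs, above both cytosolic values, and at 214 to 231 CPM in the nuclear ones, above both mitochondrial values.

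mRNAs with detained introns, which hold part of their transcripts in the nucleus, leaned the same way. Of 22 tested, 5 were higher (22.7%) and 0 lower, beside 0.632% and 0.198% of all genes. All 22 had a positive change, beside 7042 of all 16133 genes. In 17 of the 22 the groups did not overlap in that direction (beside 21.1% of all genes). Their median was 0.32 (inputs 0.24). CCNL2, a cyclin that acts in splicing, stood at 66.04 and 68.8 CPM against 37.97 and 36.4 CPM (0.84 ± 0.119, limma adjusted p = 0.00163). PNISR, an SR-related protein, stood at 303 and 340.4 CPM against 178 and 201 CPM (0.76 ± 0.131, limma adjusted p = 0.00862). RSRP1 stood at 35.7 and 33.4 CPM against 21.7 and 19.4 CPM (0.72 ± 0.108, limma adjusted p = 0.00292). In these 3 the 4 values split cleanly by construct. OGT, the enzyme that adds O-GlcNAc to proteins, changed by 0.53 ± 0.104 and SRSF5, an SR splicing factor, by 0.47 ± 0.0977 (limma adjusted p = 0.0218 and 0.0325). CCNL2 kept its call without any one of the 4 libraries, RSRP1 lost it without cytosolic replicate 2 (limma adjusted p = 0.0735), PNISR lost it without mitochondrial replicate 2 or cytosolic replicate 1 (up to 0.184), and OGT and SRSF5 lost it without any one of them (up to 0.437 and 0.406). In the fit of the 4 libraries alone 12 of the 22 were higher and 0 lower, beside 2.55% of all genes higher. Nuclear pull-downs exceeded both mitochondrial values for CCNL2 (149 to 162 CPM), RSRP1 (63.2 to 66.8 CPM), OGT (381 to 458 CPM) and SRSF5 (224 to 269 CPM). For PNISR (287 to 388 CPM) they overlapped them. Non-transfected pull-downs stood between the groups for CCNL2 (39.1 to 47.9 CPM), OGT (195 to 205 CPM) and SRSF5 (185 to 199 CPM). They overlapped the cytosolic values for PNISR (151 to 184 CPM) and RSRP1 (19.7 to 21.0 CPM).

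Among other lncRNAs, hosts of microRNAs recurred, a group picked out after its values were seen. Of 23 tested 5 were higher (21.7%, beside 0.632% of all genes and 42 of 2097 lncRNAs), with a median of 0.34 (inputs 0.13). MIR34AHG, host of the p53-regulated miR-34a, stood at 8.92 and 7.496 CPM against 1.66 and 1.21 CPM (1.92 ± 0.204, limma adjusted p = 6.34e-05), with inputs of 4.64 and 4.17 CPM. MIR17HG, host of the miR-17 to miR-92 cluster, stood at 15.3 and 10.1 CPM against 2.67 and 4.76 CPM (1.55 ± 0.246, limma adjusted p = 0.00479). Its mitochondrial input was the higher one, at 7.70 against 3.64 CPM. The call of MIR34AHG held without any one of the 4 libraries, and that of MIR17HG was lost without mitochondrial replicate 1 or cytosolic replicate 1 (limma adjusted p up to 0.111). MIR222HG (1.26), MIR503HG (1.23) and MIRLET7A1HG (1.08) were at or below 4.23 CPM in each of the 4 compared pull-downs, and their calls were lost without mitochondrial replicate 1, mitochondrial replicate 2 or cytosolic replicate 1, that of MIRLET7A1HG also without cytosolic replicate 2 (limma adjusted p up to 0.406). The mitochondrial input was also above the cytosolic one for MIR222HG (5.33 against 1.29 CPM), MIR503HG (5.53 against 3.035 CPM) and MIRLET7A1HG (1.68 against 0.455 CPM). In the other groups MIR34AHG stood at 5.10 to 6.96 CPM in the non-transfected pull-downs, between the cytosolic and the mitochondrial values, and at 27.1 to 30.7 CPM in the nuclear ones. Non-transfected pull-downs exceeded both mitochondrial values for MIR503HG (7.67 to 10.2 CPM) and MIR222HG (4.70 to 5.78 CPM). They overlapped them for MIR17HG (11.2 to 17.2 CPM) and MIRLET7A1HG (1.41 to 2.63 CPM).

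Further genes were higher in the pull-downs while their inputs differed by less than 1.5-fold. GABPB1-AS1, an antisense lncRNA, stood at 24.8 and 33.3 CPM against 10.8 and 10.4 CPM (1.36 ± 0.176, limma adjusted p = 0.000667), with inputs of 10.6 and 9.94 CPM. Its partner GABPB1 stood at 83.02 and 70.2 CPM against 72.3 and 71.4 CPM, although without stranded counting reads of the pair cannot be told apart. YJEFN3 stood at 7.28 and 9.05 CPM against 2.83 and 1.73 CPM (1.497 ± 0.183, limma adjusted p = 0.000364). In the non-transfected pull-downs YJEFN3 stood at 10.8 to 11.4 CPM, above both its mitochondrial values. GABPB1-AS1 stood there at 22.2 to 32.3 CPM, overlapping its mitochondrial values and above both cytosolic ones. The calls of GABPB1-AS1 and YJEFN3 held without any one of the 4 libraries (limma adjusted p up to 0.0250 and 0.0145). DMAP1, a subunit of the TIP60 acetyltransferase complex, stood at 23.8 and 23.9 CPM against 11.8 and 13.2 CPM (0.88 ± 0.150, limma adjusted p = 0.00778), while its input was the lower one with mitochondrial BS2 (26.0 against 33.5 CPM). In the non-transfected pull-downs DMAP1 stood at 18.9 to 26.7 CPM, a range that holds both mitochondrial values. TTLL3, a tubulin glycine ligase, changed by 0.92 ± 0.168, and GRPR, the gastrin-releasing peptide receptor, by 1.01 ± 0.211 (limma adjusted p = 0.0127 and 0.0340). The lncRNAs LINC02410 (1.26 ± 0.203) and RTCA-AS1 (1.06 ± 0.186) were called as well (limma adjusted p = 0.00520 and 0.00960). The readthrough ARPC4-TTLL3 changed by -0.56 ± 0.245 and was not called. Nucleolar pull-downs exceeded both mitochondrial values for GRPR (20.2 and 17.8 CPM), LINC02410 (21.6 and 27.2 CPM) and TTLL3 (21.7 and 25.8 CPM). Nuclear pull-downs did so for TTLL3 (33.1 to 42.2 CPM), DMAP1 (46.6 to 51.4 CPM) and GABPB1-AS1 (46.3 to 54.6 CPM). They did so too for YJEFN3 (16.4 to 17.2 CPM) and LINC02410 (11.2 to 15.4 CPM), but not for GRPR or RTCA-AS1. TTLL3, GRPR, LINC02410 and RTCA-AS1 stood below both mitochondrial values in each non-transfected pull-down. DMAP1, TTLL3, GRPR, LINC02410 and RTCA-AS1 lost their calls without mitochondrial replicate 2 or cytosolic replicate 1, and in part without the other libraries.

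Where a gene shares sequence with another, how reads were divided between them is uncertain. ASDURF, a reading frame at the start of the ASNSD1 transcript, was listed at 9.15 and 5.87 CPM with mitochondrial BS2 and at 0 in both cytosolic pull-downs and both inputs (limma adjusted p = 2.58e-06). In the nucleolar pull-downs ASDURF stood higher, at 16.4 and 24.05 CPM. ASNSD1 itself stood at 227 and 212 CPM against 215 and 229 CPM (-0.02 ± 0.0918). The readthrough COMMD3-BMI1 stood at 6.99 and 8.53 CPM against 0 and 1.85 CPM, whereas COMMD3 (26.7 and 19.9 against 24.1 and 21.3 CPM) and BMI1 (216 and 168 against 187 and 211.5 CPM) overlapped between groups. The readthrough MSH5-SAPCD1 changed by 1.38 ± 0.207 and MSH5 by -0.13 ± 0.150. FAM156A (1.45 ± 0.283) and its near-copy FAM156B (-0.69 ± 0.643) went in opposite directions, the latter without passing. RABL2A, a small GTPase gene with a near-copy, changed by 1.00 ± 0.159 and RABL2B by 0.06 ± 0.110. In each of these pairs the called gene was the less abundant in the cytosolic pull-downs, and none of the partners was called. ASDURF kept its call without any one of the 4 libraries, the 4 others lost theirs without mitochondrial replicate 2 or cytosolic replicate 1, COMMD3-BMI1 also without mitochondrial replicate 1 and FAM156A also without cytosolic replicate 2 (limma adjusted p up to 0.414).

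**Figure D5:**
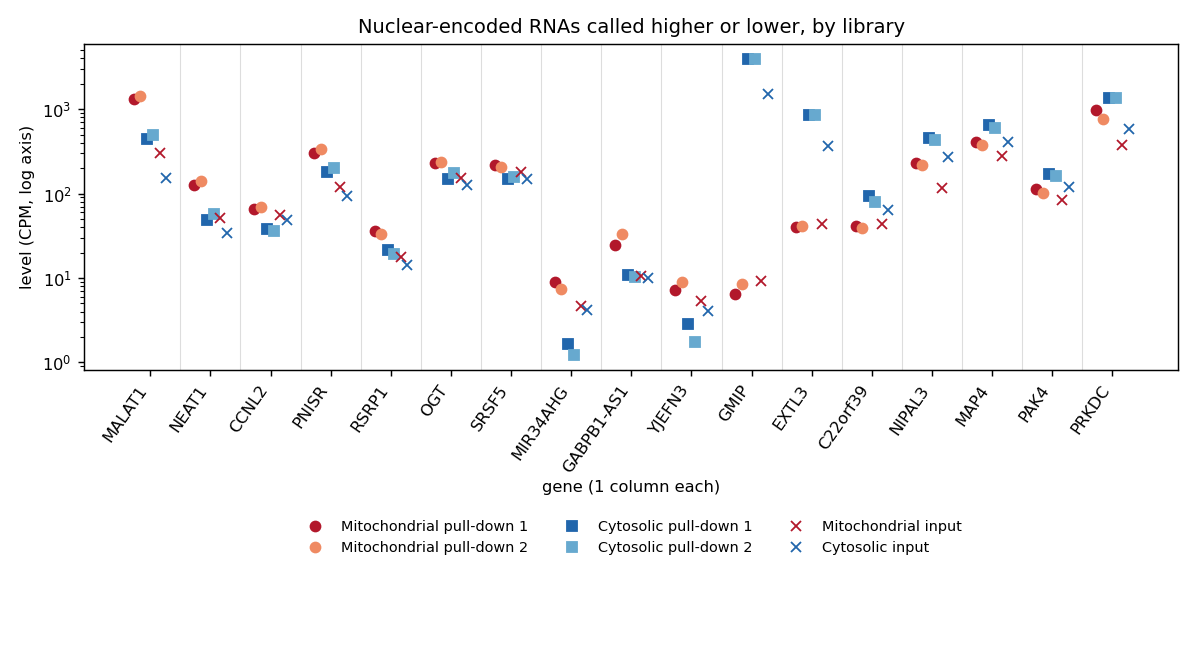
Levels (CPM, log axis) of 17 nuclear-encoded RNAs called higher (MALAT1 to YJEFN3) or lower (GMIP to PRKDC) in the 4 pull-downs (filled) and the 2 inputs (crosses), 1 point per library. The 2 colours of filled points separate for every gene shown, and for GMIP and EXTL3 the cytosolic input (1504 and 363 CPM) is also far above the mitochondrial one (9.28 and 43.5 CPM).

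In the other direction, 2 genes stood far apart from the rest. GMIP (chromosome 19, 19629476 to 19643667) stood at 6.44 and 8.46 CPM with mitochondrial BS2 and at 3960 and 3962 CPM with cytosolic BS2, a ratio of 532 (-8.88 ± 0.318, limma adjusted p = 1.56e-10). EXTL3, a glycosyltransferase of heparan sulfate synthesis (chromosome 8, 28600469 to 28755599), stood at 40.2 and 41.1 CPM against 860 and 849 CPM, a ratio of 21.0 (-4.36 ± 0.108, limma adjusted p = 1.21e-12). Both calls held without any one of the 4 libraries. The inputs showed the same split, GMIP at 9.28 against 1504 CPM and EXTL3 at 43.5 against 363 CPM. Neither gene was above 13.4 CPM (GMIP) or 56.9 CPM (EXTL3) in any library without cytosolic BS2, so the contrast lies in the cytosolic libraries.

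The remaining negative changes were smaller, 23 of the 32 lying between 0 and -1. Non-transfected pull-downs stood below both groups for NIPAL3 (65.7 to 70.6 CPM) and COL6A6 (0.309 to 1.58 CPM). They stood between the groups for C22orf39 (44.4 to 51.4 CPM) and VPS33B (12.3 to 14.8 CPM). NIPAL3, a magnesium transporter-like gene, stood at 232 and 216 CPM against 462 and 432 CPM (-0.99 ± 0.119, limma adjusted p = 0.000286), with inputs of 115 and 270.4 CPM. C22orf39 stood at 40.8 and 39.02 CPM against 93.0 and 79.6 CPM (-1.09 ± 0.139, limma adjusted p = 0.000541), with inputs of 43.6 and 64.6 CPM. Both calls held without any one of the 4 libraries (limma adjusted p up to 0.0108 and 0.0220). COL6A6, a collagen VI chain, stood at 6.96 and 5.56 CPM against 18.3 and 20.1 CPM (-1.49 ± 0.248, limma adjusted p = 0.00657). VPS33B, which acts in vesicle tethering, stood at 9.25 and 3.40 CPM against 16.4 and 17.7 CPM (-1.42 ± 0.272, limma adjusted p = 0.0182), and its mitochondrial replicates differed more from each other than the cytosolic ones. Both lost their calls without mitochondrial replicate 2 or either cytosolic replicate (limma adjusted p up to 0.125 and 0.174).

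A further 12 genes were called lower with changes of -0.50 to -0.84. MAP4, which binds microtubules, stood at 414 and 374 CPM against 645 and 603 CPM (-0.66 ± 0.107, limma adjusted p = 0.00523). PAK4, a kinase acting on the cytoskeleton, stood at 113 and 102 CPM against 170.5 and 163 CPM (-0.63 ± 0.0996, limma adjusted p = 0.00473). PRKDC, the catalytic subunit of DNA-dependent protein kinase, stood at 975 and 766 CPM against 1360 and 1347 CPM (-0.65 ± 0.117, limma adjusted p = 0.0123). Their inputs differed alike, by -0.54, -0.53 and -0.62. HSPA1B, an inducible HSP70 gene with a near-copy (HSPA1A), stood at 421 and 375 CPM against 624 and 610 CPM (-0.63 ± 0.127, limma adjusted p = 0.0267), with an input difference of -0.73. Non-transfected pull-downs stood below both groups for MAP4 (251 to 276 CPM), PAK4 (29.6 to 34.3 CPM) and PRKDC (386 to 455 CPM). For HSPA1B they stood above both (697 to 833 CPM). GCN1 (an activator of the kinase GCN2), TLN1 (talin), TRRAP (a scaffold of acetyltransferase complexes), PRPF8 (a core spliceosome protein), MCM2 (a replicative helicase subunit), XPO6 (an export receptor), BCR and RAVER1 (an RNA-binding protein) were the other 8. All 12 of these genes lost their calls without at least cytosolic replicate 1 (limma adjusted p up to 0.517).

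Lists of abundant cytosolic mRNAs had negative medians without calls. Of 82 cytosolic ribosomal protein mRNAs 0 were called by limma, 53 were lower and 0 higher at an unadjusted p below 0.05, and 80 had a negative change. Their median was -0.31 (inputs -0.05). In 67 both mitochondrial pull-downs were below both cytosolic ones, beside 32.6% of all genes. RPL4 stood at 1817 and 1669 CPM against 2315 and 2232 CPM (-0.38 ± 0.0908, limma adjusted p = 0.0662), whereas RPL5 overlapped at 2087 and 1895 against 2030 and 2058 CPM. Of 28 glycolytic and housekeeping mRNAs 0 were called by limma, 19 were lower and 0 higher at an unadjusted p below 0.05, with a median of -0.32 (inputs -0.18). ACTB, cytoplasmic actin, stood at 1260 and 1120 CPM against 1536 and 1493 CPM (-0.35 ± 0.108, limma adjusted p = 0.149). The translation factor list (35 genes) had 0 calls by limma, 2 higher and 12 lower at an unadjusted p below 0.05, and a median of -0.12. EEF1A1, which delivers tRNAs to the ribosome, changed by -0.29 ± 0.0961 (limma adjusted p = 0.170). In the fit of the 4 libraries alone 37 ribosomal protein mRNAs and 16 glycolytic and housekeeping mRNAs were lower and 0 higher in both lists, beside 6.29% of all genes lower.

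mRNAs translated at the endoplasmic reticulum had 1 call among 40 genes: PDIA4, a disulfide isomerase, at 215 and 186 CPM against 283 and 278 CPM (-0.49 ± 0.0927, limma adjusted p = 0.0182; up to 0.320 when single libraries were left out, the call holding only without mitochondrial replicate 1). Of 448 ZNF zinc finger genes 3 were higher (0.67%) and 1 lower (0.223%), shares near the 0.632% and 0.198% of all genes, with a median of 0.09. At an unadjusted p below 0.05, 40 of the 448 were higher and 22 lower, beside 5.03% and 10.8% of all genes. In 191 both mitochondrial pull-downs were above both cytosolic ones and in 80 below, beside 21.1% and 32.6% of all genes. ZNF121 (232 and 226 against 148 and 153 CPM) and ZNF224 (41.9 and 43.5 against 27.3 and 29.2 CPM) were higher, and ZNF883 was listed at 5.25 and 3.66 CPM with mitochondrial BS2 and at 0 in both cytosolic pull-downs. ZNF703 was lower (100.5 and 98.8 against 146.5 and 138 CPM). All 4 zinc finger calls were lost without any one of the 4 libraries. Proteasome (36 genes, median -0.10), stress response (19 genes, -0.09), immediate-early (31 genes, -0.05), interferon (18 genes, 0.01), replication-dependent histone (29 genes, -0.04) and snoRNA-host and other cytosolic lncRNA genes (14 genes, -0.10) had 0 calls by limma. At an unadjusted p below 0.05 these 6 lists held 1, 1, 0, 3, 3 and 2 genes higher and 7, 5, 5, 2, 2 and 2 lower, in that order.

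Finally, the difference between the constructs in the pull-downs was set against the difference in the inputs for 16693 genes. This called 29 genes higher (0.174%) and 8 lower (0.0479%), 9 and 2 of them also called the same way in the pull-downs. MT-ND6 was among the former, and EXTL3 among the latter, with a corrected difference of -1.33 ± 0.184 (limma adjusted p = 0.00685), a call that held under all alternatives. GMIP, with a corrected difference of -1.69 ± 0.562, did not pass (limma adjusted p = 0.2998). The lncRNA LINC01001 stood at 0.633 and 0.696 CPM against 3.22 and 4.20 CPM in the pull-downs but at 4.29 against 0.572 CPM in the inputs, so the order of the constructs was opposite in the 2 kinds of library.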

How the data were processed

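RNA was sequenced from 12 pull-downs and 4 inputs of HEK293T cells. Per the submitters' processing notes, STAR 2.7.9a, Salmon 1.4.0 and limma were used with GRCh38, in no stated role or order. Per the labels, values were filtered and TMM normalized as CPM, counts scaled to the library total. The deposited values proved to be log2 of CPM plus a constant, although plain CPM had been assumed when the tests were set. All libraries have the same lowest value, -2.5907, or 0.166 on the linear scale, and subtracting that constant from the antilog returned CPM. Of 39823 entries, 14906 hold no value, and 39 repeated names hold identical values, which leaves 24878 genes. Values gave whole reads (tolerance 0.05 reads) for 79.9% to 89.4% of low values, too few for a count test. Depth was estimated from the size of that step.

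Genes reaching 1 CPM in 2 or more of the 12 pull-downs entered a fit of log2(CPM + 1) in limma 3.58.1 (R 4.3.3, trend on) over the 5 pull-down groups, which share 1 estimate of spread. Mitochondrial minus cytosolic was tested with Benjamini-Hochberg adjustment over all 16133 genes (threshold 0.05). The input-corrected difference used all 16 libraries and assumes that single inputs vary like pull-downs. The fit was tested on simulated data.

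Named genes were the 12 largest changes per direction with no overlap and at least 5 CPM in the higher group, the same among genes whose inputs differed by at most 0.58 (log2), those called in the input-corrected fit too, all mitochondrially encoded genes, MALAT1, NEAT1, and up to 6 members per list. The text gives a selection, and genes outside the rule are partners of named ones or members of small counts, chosen after their values were seen. The genes, lists and tests were chosen with earlier results of these data known. Coordinates and sequences are from GENCODE 29 (GRCh38), and were found for 96.8% of genes by their identifiers. Alternatives were other scalings, pseudocounts, filters, sets of libraries, the deposited log2 values, robust moderation, a length and GC trend, a replicate block and each of the 4 libraries left out.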

Additional observations from a re-analysis of the deposited data

Results flagged for a closer look

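The difference between the constructs was not the same in pull-downs and inputs for 7 named genes, by the test of that difference itself (pull-down difference minus input difference, log2, limma). Each input is 1 library, so the input part has no replicate. The call was lost in 11 of 16 alternatives for MT-ND6 (limma adjusted p 0.00695 to 0.162), 13 of 16 for COMMD3-BMI1 (0.0169 to 0.182), 7 of 14 for LINC01622 (0.0118 to 0.146) and 1 of 15 each for LINC01001 and LINC01109 (up to 0.0875 and 0.0536). It was kept in all 16 for EXTL3 and all 15 for ASDURF.

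MT-ND6, the complex I mRNA of the minus strand, differed by 1.96, and EXTL3, the heparan sulfate glycosyltransferase gene, by -1.33. EXTL3 was 21.0 times higher in the cytosolic pull-downs than in the mitochondrial ones, while its inputs stood at 363 and 43.5 CPM. COMMD3-BMI1, a readthrough, differed by 4.43 and stood at 3.16 CPM in the cytosolic and 0 in the mitochondrial input. ASDURF differed by 3.06 and was listed at 0 in both inputs. The lncRNAs LINC01109 and LINC01622 differed by 2.62 and 2.52, and LINC01001 by -3.24. None of these 3 lncRNAs exceeded 4.29 CPM in any of the 6 libraries compared. In all 3 the order of the inputs was opposite to that of the pull-downs.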

How the results depend on the processing

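The 13 mitochondrially encoded mRNAs were called higher under every alternative run, and all 102 higher and 32 lower calls recurred in the fit of the 4 compared pull-downs alone. That fit called far more genes, 375 higher and 926 lower, 101 and 23 of them at least 2-fold. The lower calls numbered 58 with CPM rescaled to a common total and 53 with robust moderation. With a length and GC trend removed there were 235 higher and 98 lower calls. A pseudocount of 5 CPM left 33 genes at least 2-fold higher and 5 lower. Leaving out 1 of the 4 libraries gave 35 to 63 higher calls (fewest without cytosolic replicate 1), 4 to 22 lower, 33 to 56 at least 2-fold higher and 2 to 13 at least 2-fold lower. Input-corrected calls numbered 63 higher and 14 lower with a pseudocount of 5 CPM, 120 and 187 with no filter, 18 and 5 with a filter at 5 CPM, 57 and 39 after removal of the length and GC trend, and 16 to 37 and 5 to 8 without 1 library. The lower ones numbered 15 with quantile normalization, 5 on the deposited log2 values and 15 with the 4 pull-downs and their 2 inputs alone. The causes were not tested beyond the construction of each alternative. Across scalings the median change of all genes ran from -0.05 to 0.02.

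Deviations of same-numbered mitochondrial and cytosolic pull-downs correlated at r = -0.07 over 16133 genes. The bracketed codes in the labels do not match the replicate numbers of the cytosolic pull-downs. Same-numbered libraries may therefore not share a preparation, and this correlation cannot exclude pairing or a batch. With the replicate number as a block, 166 genes were higher and 313 lower, 15 of the latter at least 2-fold.

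Of 69 called genes named or examined, 26 kept their call without each of the 4 libraries in turn, 22 lost it in every fit that tested them, and 21 in some. MT-TL1, LINC01109 and LINC01622, among the 22, were tested in 2 of the 4 fits, since they did not pass the filter on low values without either mitochondrial replicate. With 2 libraries per group and 1 input each, small changes of abundant mRNAs and changes below a few CPM are the least certain. Limits on low values cover counting error only.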
